A study of Cavia porcellus with 30 samples.

Results

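The early response of guinea pig kidney tubule cells to a low dose of mercuric chloride was described by comparing 5 RNA-seq libraries of cells exposed to 30 µM for 12 h with 5 vehicle libraries of the same time, 10 of the 30 libraries in the series. Members were taken by the agent and time in the sample labels, and no measured value was used to choose them. The cells were renal proximal tubular epithelial cells of Hartley guinea pigs. The study's methods describe male animals, tubules isolated at an age of 6 to 8 weeks, outgrowth to a monolayer and replating on coated plates. All groups were of the same breed, no other treatment is named, and the vehicle was Hepatocyte Maintenance Medium. The other groups used here for reference were 40 µM at 12 h, and vehicle and 30 µM at 24 h, with 5 libraries each. The sources do not state whether the 5 libraries of a group came from separate animals or from separate wells, so p-values measure the spread between these libraries, which may be technical. The libraries are bulk samples, in which fewer cells of a type and less RNA per cell cannot be told apart.

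The proximal tubule is the first segment of the nephron, where most filtered solutes are taken back. Its cells take up mercuric ions as conjugates with thiols such as cysteine and glutathione, and for this reason the segment is a main site of injury by mercury salts. Inside the cell mercuric ions bind thiol groups of proteins. Metallothionein, glutathione synthesis and heat shock genes are among the classes known to respond to metal ions of this kind. The deposited transcripts carry Ensembl identifiers only, and 0 of the 25824 identifiers matched the gene table at hand, so none of these classes, and no marker of the tubule or of other kidney cells, could be read. The labelled cell type was therefore not checked. The transcripts are described by their size of change, level and length, and 4 of them by identifier.

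Library totals lay between 22209989 and 34237468 estimated counts and did not separate the groups (vehicle 26696414 ± 4498812, 30 µM 27130484 ± 4870625, SD, n = 5 each; two-sided exact permutation p = 0.873). A count of at least 1 was found for 18996 ± 241 transcripts in vehicle and 19053 ± 187 at 30 µM (exact permutation p = 0.675). Over the 20 pairs of libraries within a group, log2 levels correlated across transcripts with r between 0.974 and 0.984, and chi-square per degree of freedom was between 6.75 and 22.3, so no library was a copy of another. At 12 h replicate 5 at 30 µM stood apart from the other 4 in the lengths of the transcripts it sampled, and the main results on length are given with and without it.

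At 12 h, 30 µM changed many transcripts and most of them by little. Of 16698 transcripts tested, 4837 passed (29.0% of those tested; edgeR quasi-likelihood test, Benjamini-Hochberg adjusted p under 0.1, n = 5 each), 2505 higher (15.0%) and 2332 lower (14.0%). Among these, 59.4% fell in the smallest of 6 size classes, which ended at 0.32 on the log2 scale, 82.2% differed by less than 1.5-fold, and 6.68% by 2-fold or more. The median size of a called change was 0.27 on the log2 scale, or 1.21-fold, and was 0.26 for rises and 0.29 for falls. Transcripts that did not pass had a median size of 0.10. The median standard error of the rises in the smallest class was 0.04 on the log2 scale.

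The balance of 51.8% of calls higher rested on the scaling. TMM factors set the bulk of transcripts to no change. With library totals in their place 1813 transcripts were higher and 3170 lower (36.4% higher), and on log2(TPM + 1) 1340 were higher and 4261 lower (23.9% higher). The median log2 fold change of all tested transcripts was -0.01 with TMM, -0.05 with library totals and -0.09 on log2(TPM + 1).

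The distribution of changes was not symmetric in its tails. The middle of the distribution was slightly wider on the lower side, with a 25th percentile of the log2 fold change at -0.16 and a 75th percentile at 0.13. At the 5th and 95th percentiles the values were -0.58 and 0.58. Farther out the rises were the larger, with -1.11 at the 1st percentile against 1.41 at the 99th, and limits of -2.35 and 3.41 for the extreme 0.1% of transcripts on the lower and the upper side.

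The called transcripts followed the same shape. In the smallest class there were 1554 rises and 1320 falls. In the next class, up to 1.5-fold, the falls were the more numerous, 639 against 462 rises, and from 1.5 to 2-fold the counts were 271 rises and 268 falls. From 2 to 4-fold there were 162 rises and 96 falls, from 4 to 8-fold 33 and 7, and at 8-fold and more 23 and 2. In all, 218 rises and 105 falls reached 2-fold (323 transcripts, 1.93% of those tested, 67.5% higher). The split at 2-fold was 200 rises and 124 falls with library totals, and 194 and 162 on log2(TPM + 0.1), where 54.5% were higher. The number that reached 2-fold was 527 in DESeq2 (328 rises and 199 falls) and 149 on log2(TPM + 1) (110 and 39).

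**Figure D1:**
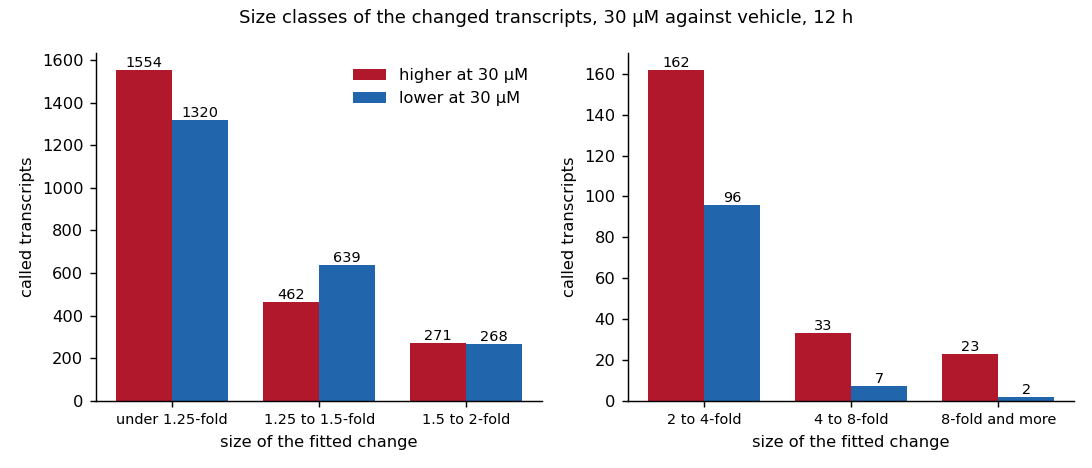
Number of called transcripts (vertical axes, starting at 0) in each class of fitted fold change (horizontal axes) for 30 µM against vehicle at 12 h, red for higher and blue for lower; the smallest class ends at a log2 size of 0.32, and the right panel has its own scale. Falls exceed rises only in the second class, 639 against 462, and rises exceed falls in each class from 2-fold upward, 23 against 2 at 8-fold and more.

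A fitted fold change past 2 does not itself test that the change was larger than a given size. In a test against a minimum of 1.2-fold (edgeR glmTreat, adjusted p under 0.1), 963 transcripts passed (5.77% of those tested), 567 higher and 396 lower. Against a minimum of 1.5-fold, 249 passed (1.49%), of which 201 were higher (80.7%) and 48 lower. With library totals the split was 488 higher and 555 lower at 1.2-fold (46.8% higher, against 58.9% with TMM) and 179 and 61 at 1.5-fold. The excess of rises among changes beyond 1.5-fold was thus present under both scalings, and that beyond 1.2-fold turned with the scaling.

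Libraries of the groups did not overlap in CPM (counts per fixed library size after TMM scaling) for 3111 of the tested transcripts (18.6%), 1669 with all 5 libraries at 30 µM above all vehicle libraries and 1442 with all below. Of the called transcripts 63.0% had no overlap. Among changes of 2-fold or more this held for 194 of 218 rises and 74 of 105 falls. To be tested a transcript had to reach 0.382 CPM, which is 10 counts at the median library, in at least 5 of the 10 libraries. For 15 of the rises and 4 of the falls no library of the lower group reached this minimum, so that the filter itself fixed the direction and the lack of overlap, and without them the counts were 179 of 203 and 70 of 101. Where all 5 libraries of the lower group reached the minimum there were 144 rises and 56 falls of 2-fold or more, of which 136 and 47 had no overlap. Neither of the 2 falls of 8-fold or more was without overlap.

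The falls of 4-fold or more were few and had large errors. Their 9 transcripts had a median standard error of 0.79 on the log2 scale, against 0.28 for the 56 rises of that size. Vehicle levels of the 9 falls were between 1.195 and 10.7 CPM. Of the 9, 3 passed the test against 1.2-fold and 1 had whole estimated counts in all libraries, which mark a transcript whose reads were shared with no other. In 12 of the 56 rises no vehicle library reached the filter minimum. Of the other 44, 38 passed that test and 24 had whole estimates, with a median standard error of 0.24. All libraries of the lower group reached the minimum in 22 of the 56 rises and in none of the 9 falls. The number of changes of this size depended on the fit, with 131 rises and 70 falls in DESeq2, 138 and 67 without the filter on low counts, 105 and 38 when all 30 libraries were fitted together, and 26 and 2 on log2(TPM + 1), where low levels are damped. It also moved when any 1 library was left out, where more transcripts passed the filter (16847 to 16900 against 16698). The 9 falls became 18 without replicate 1 at 30 µM, 25 without replicate 2, 17 without replicate 3, 15 without replicate 4 and 19 without replicate 5, while the rises numbered 54 to 58. Without vehicle replicates 1 to 5 in turn, the 56 rises became 69, 64, 72, 68 and 69, while the falls numbered 7 to 12. Rises outnumbered falls in each of these fits.

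The 23 rises of 8-fold or more included transcripts that were close to absent in vehicle and some that became abundant. Their vehicle levels at 12 h ranged from 0 to 80.7 CPM and their levels at 30 µM from 0.610 to 1204 CPM. Of the 23, 15 were under 0.5 CPM in vehicle, 4 were at 5 CPM or more in vehicle, and 6 exceeded 100 CPM at 30 µM. In 5 of them no vehicle library had more than 3 counts. In 8, these 5 among them, no vehicle library reached the filter minimum, and these could be tested only because they were higher at 30 µM. The 5 lay between 0.610 and 48.6 CPM at 30 µM, at least 5.37-fold to at least 428-fold higher, with 3 counts per vehicle library (0.113 CPM on average) as the floor. The median log2 fold change of the 23 was 3.86 as fitted and 3.58 with these 5 at their bound, and 22 of the 23 remained at 8-fold or more. No tested transcript had 3 counts or fewer in all 5 libraries at 30 µM.

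The largest fitted rise, among called transcripts that averaged 50 counts or more and whose groups did not overlap, was that of ENSCPOT00000004231.3 (889 bases, with fractional estimates, so that its reads were in part shared with another transcript). It was at 0 CPM in all 5 vehicle libraries and at 49.9, 50.4, 48.7, 47.4 and 46.5 CPM in the 5 libraries at 30 µM. The libraries at 30 µM were closely grouped (48.6 ± 1.66, SD, n = 5) and none was near the vehicle value. Against the floor of 3 counts the rise was at least 428-fold; it is one of 16 tested transcripts with no vehicle library at the filter minimum, so no p is given for it. At 24 h all vehicle libraries were again at 0, and the 30 µM libraries held 95.8 ± 11.8 CPM, each of them above every 30 µM library at 12 h. At 40 µM and 12 h the level was 50.03 ± 13.5 CPM, with a log2 difference from 30 µM of 0.07 (SE 0.16, adjusted p = 0.805, edgeR), which at this error does not show that the doses gave the same level.

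The largest gain in CPM among transcripts with whole estimates belonged to ENSCPOT00000025069.2 (1261 bases), which was already abundant in vehicle. Its vehicle libraries held 1043, 1101, 1134, 1086 and 1072 CPM, and those at 30 µM held 3949, 4004, 3886, 4076 and 4295 CPM. Each library at 30 µM was far above each vehicle library, and the spread within groups was small (1087 ± 33.7 and 4042 ± 158, SD, n = 5 each). The log2 fold change was 1.90 (SE 0.03, edgeR adjusted p = 1.18e-11). At 24 h the groups held 1113 ± 60.8 and 3971 ± 405 CPM (log2 fold change 1.83), and the difference of the effect between the times was -0.06 (SE 0.07, adjusted p = 0.871, edgeR). At 40 µM and 12 h it held 4520 ± 480 CPM, 0.19 above 30 µM on the log2 scale (SE 0.06, adjusted p = 0.0471, edgeR).

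Among the falls, ENSCPOT00000002137.3 (1065 bases, whole estimates) had the largest log2 fold change by the same rule and was a low-level transcript. It held 4.04, 2.78, 3.76, 3.02 and 2.95 CPM in the vehicle libraries and 0.457, 0.407, 0.823, 0.713 and 0.227 CPM at 30 µM. The highest library at 30 µM was below the lowest vehicle library, although both groups varied widely relative to their means (3.31 ± 0.554 and 0.526 ± 0.240). The log2 fold change was -2.62 (SE 0.31, adjusted p = 0.000129, edgeR). At 24 h the means were 3.93 ± 0.174 and 0.969 ± 0.244 CPM (log2 fold change -2.02), and the difference between the times was 0.61 (SE 0.35, adjusted p = 0.551, edgeR).

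The largest loss in CPM among whole estimates was that of ENSCPOT00000000349.3 (7427 bases), one of the most abundant transcripts of these cells. Vehicle libraries held 7395, 7296, 7457, 7610 and 7726 CPM and those at 30 µM held 6444, 6636, 6577, 6580 and 6316 CPM. The groups did not overlap, yet the change was small, 7497 ± 171 against 6511 ± 130 CPM. Its log2 fold change of -0.20 (SE 0.02, adjusted p = 3.84e-05, edgeR) was below the size that the test against 1.2-fold can call, and it did not pass that test. At 24 h the log2 fold change was -0.22, with 7067 ± 249 and 6060 ± 411 CPM. At 40 µM and 12 h the level was 5843 ± 296 CPM, lower than at 30 µM by a log2 difference of -0.13 (SE 0.04, adjusted p = 0.0230, edgeR).

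**Figure D2:**
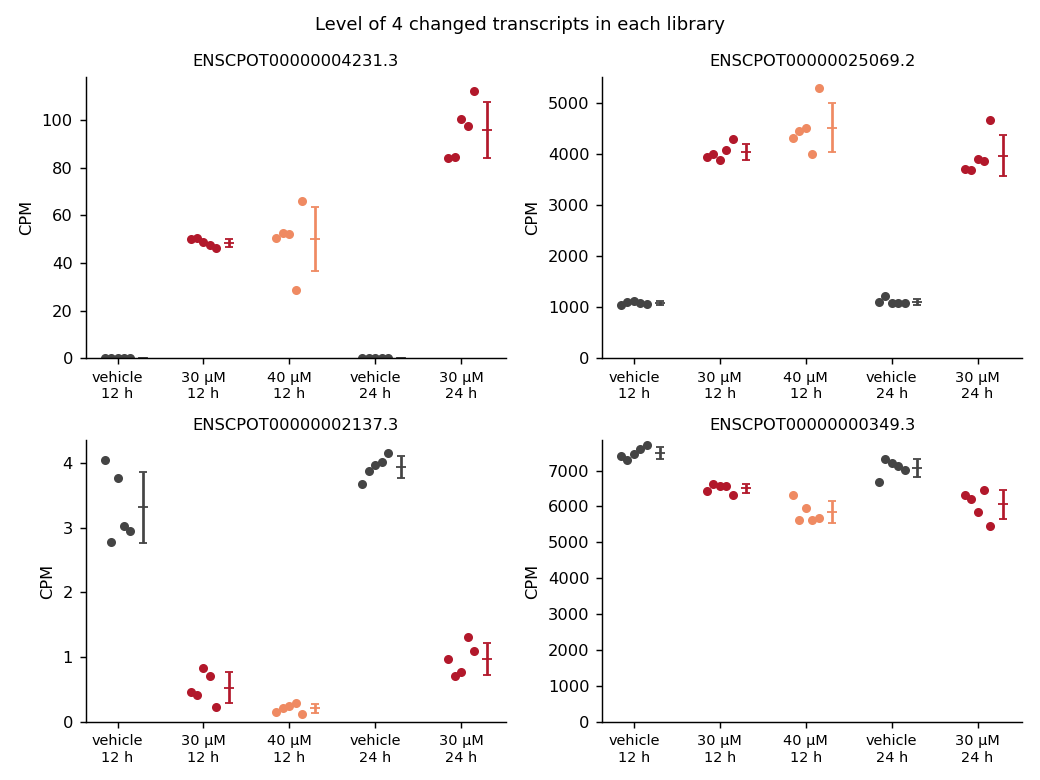
Level in CPM (vertical axes, linear, from 0) of 4 changed transcripts in each library of 5 groups (horizontal axes), with points for libraries and bars for the mean ± SD (n = 5). In the upper panels the 30 µM libraries lie above every vehicle library of their time, from 0 to about 48.6 CPM at 12 h on the left, and in the lower panels they lie below, with a small step on the right from 7497 to 6511 CPM.

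The rises and falls also differed in how the change was spread over transcripts. Called rises together took 23.9 ± 0.402% of a library's counts in vehicle (range 23.3 to 24.3) and 29.4 ± 0.370% at 30 µM (29.1 to 30.0). Called falls took 22.7 ± 0.149% in vehicle (22.5 to 22.9) and 18.7 ± 0.280% at 30 µM (18.3 to 19.0). These sums are descriptions, since the transcripts in them were called on the same libraries.

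On the TMM scale 50% of the CPM gained lay in 73 transcripts and 50% of the CPM lost in 101. The 3 largest gains made up 13.5% of all CPM gained, and the 3 largest losses 7.79% of all CPM lost. The 10 transcripts with the largest gains rose from 1.10 ± 0.0247% of a library's counts (range 1.07 to 1.13) to 2.58 ± 0.0663% (2.52 to 2.69), and 7 of the 10 changed by 2-fold or more. The 10 with the largest losses went from 3.91 ± 0.0801% (3.82 to 4.03) to 3.21 ± 0.0922% (3.07 to 3.31), and none changed by 2-fold. Their log2 falls were between 0.16 and 0.39 in size, whereas the 10 gains ranged from 0.36 to 3.90. The losses came from transcripts that were very abundant in vehicle, 1736 to 7497 CPM, and that were long, with a median of 4377 bases. The gains came from a wider range of vehicle levels, 80.7 to 2971 CPM, and from shorter transcripts, with a median of 2158 bases. Without replicate 5 at 30 µM the median lengths of the 10 largest losses and gains were 4377 and 2715.5 bases.

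Baseline level was taken from the 5 vehicle libraries at 24 h, which enter no fold change at 12 h. Transcripts that passed were more abundant than those that did not, with medians of 33.0 and 11.1 CPM, and rises had a higher median level than falls, 37.0 against 29.0 CPM. The share called rose with the level, from 9.84% of 2174 transcripts at 0.5 to 2 CPM to 19.0% of 3982 at 2 to 10 CPM, 31.9% of 6233 at 10 to 50 CPM, 45.9% of 2988 at 50 to 200 CPM and 58.5% of 754 at 200 CPM and more. Under 0.5 CPM it was 11.5% of 567 with the filter on low counts. Without the filter it was 3.23% of 5945, below the 6.79% at 0.5 to 2 CPM.

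Precision changed with the level in step. The median standard error over all tested transcripts fell from 0.49 on the log2 scale under 0.5 CPM to 0.34, 0.15, 0.07, 0.04 and 0.04 in the successive classes. The smallest change called in a class shrank from 0.84 under 0.5 CPM to 0.43, 0.17, 0.08, 0.07 and 0.04. No log2 change under 0.43 was called in transcripts under 2 CPM, and the low share called there does not show that such transcripts responded less. The median size of the calls fell accordingly, from 1.57 to 0.94, 0.51, 0.26, 0.20 and 0.18.

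When a change beyond 1.2-fold was required, the share passing rose with the level from 0.5 CPM upward. It was 2.99% at 0.5 to 2 CPM, 5.50% at 2 to 10, 5.58% at 10 to 50, 6.79% at 50 to 200 and 11.7% at 200 CPM and more. Under 0.5 CPM it was 7.05%. This test also depends on precision, with a median standard error of 0.34 at 0.5 to 2 CPM and 0.04 at 200 CPM and more. The rise in the share therefore does not show that abundant transcripts responded more. In the most abundant class 254 transcripts rose and 187 fell, and 10 rises and 2 falls reached 2-fold.

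**Figure D3:**
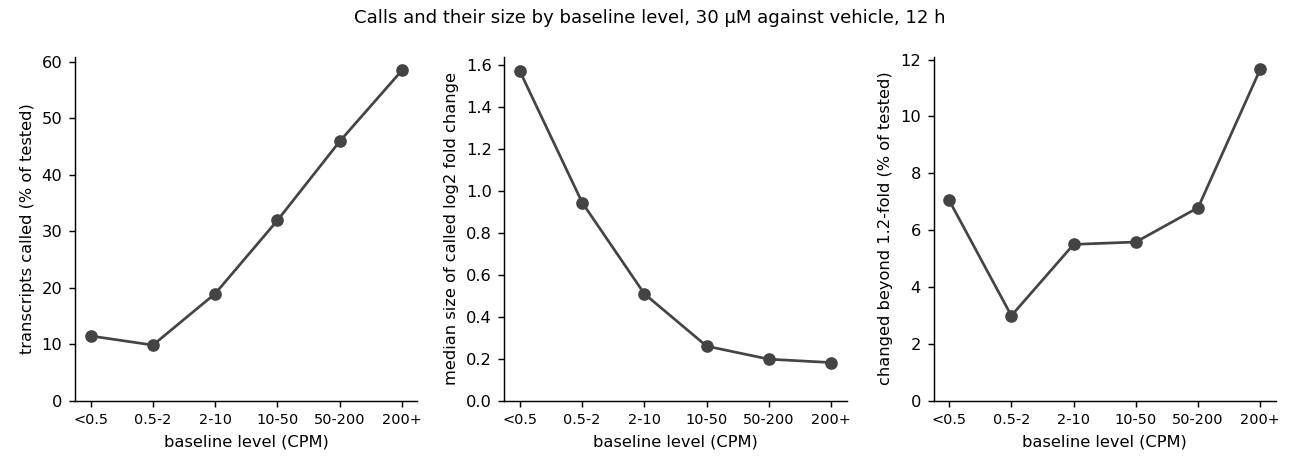
Share of tested transcripts called (left, %), median size of the called log2 fold change (middle) and share passing the test against 1.2-fold (right, %) in 6 classes of baseline level (horizontal axes, mean CPM of the vehicle libraries at 24 h). The share called climbs to 58.5% while the median size falls to 0.18, and the share beyond 1.2-fold rises from 2.99% at 0.5 to 2 CPM to 11.7% at 200 CPM and more, with 7.05% in the lowest class. Precision rises with the level, and both shares depend on it.

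The direction of the calls varied with level. At 2 to 10 CPM falls were the more numerous, 425 against 330 rises, and at 10 to 50 CPM the counts were 1019 and 971. At 50 to 200 CPM there were 777 rises and 595 falls. Under 0.5 CPM 57 of 65 calls were rises, but a transcript under the count minimum in vehicle enters the test only where it is higher at 30 µM, so this split is in part set by the filter (15 of the 57 had no vehicle library at the minimum). Without the filter 5945 transcripts of this class were tested, and 134 rose and 58 fell.

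Large rises were found at every level, and large falls were few at 50 CPM and more. Rises of 2-fold or more numbered 52, 52, 45, 35, 24 and 10 in the 6 classes from the lowest to the highest level, and falls of that size 6, 40, 39, 15, 3 and 2. At 50 CPM and more this gave 34 rises and 5 falls. The median baseline level of the rises decreased with size, from 53.4 CPM in the smallest size class to 9.75 CPM at 1.5 to 2-fold, 2.66 CPM at 2 to 4-fold and 0.486 CPM at 8-fold and more. For falls it went from 45.1 CPM to 6.43 CPM at 1.5 to 2-fold and 2.46 CPM at 2 to 4-fold.

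**Figure D4:**
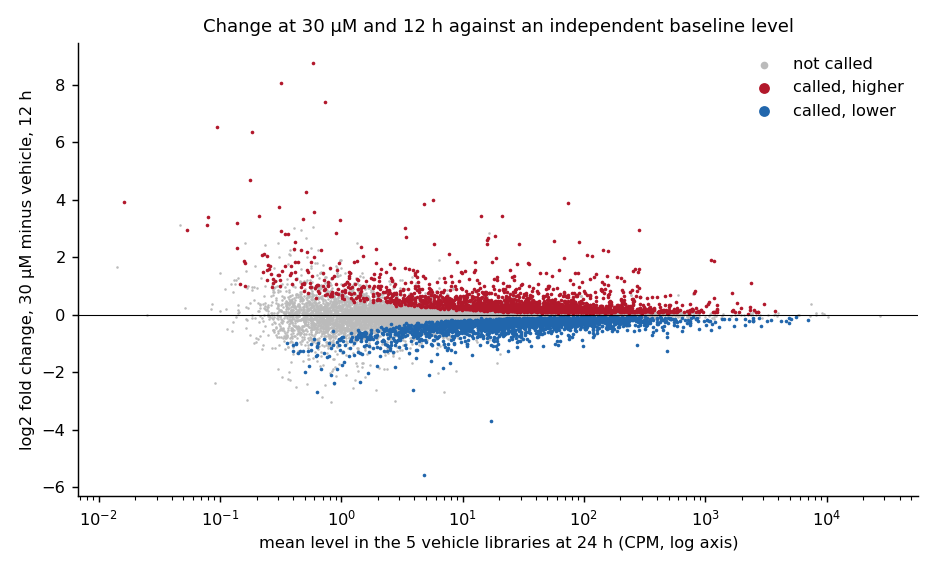
Log2 fold change at 30 µM and 12 h (vertical axis) against mean level in the vehicle libraries at 24 h (horizontal axis, CPM, log axis) for 16695 tested transcripts, grey where not called, red where higher and blue where lower; 3 tested transcripts at 0 CPM in all these libraries, among them ENSCPOT00000004231.3, are not drawn. The calls narrow toward 0 as the level rises, and above 50 CPM changes beyond 2-fold are mostly rises, 34 against 5.

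Called transcripts were slightly longer than the rest, with a median annotated length of 2783 bases against 2514 for those not called and 2602 for all tested. Rises had a median of 2738 and falls of 2824.5 bases, an order that turned without replicate 5 at 30 µM (2804 and 2771.5 bases) and without replicate 5 of vehicle (2806 and 2782 bases). The share called was 16.3% of 527 transcripts under 500 bases, 22.8% of 1541 at 500 to 1000, 27.3% of 4159 at 1000 to 2000, 31.6% of 5902 at 2000 to 4000, 31.1% of 4174 at 4000 to 8000 and 26.3% of 395 at 8000 bases and more. Level ran with length in the same order, from a median of 4.44 CPM in the shortest class to 29.3 CPM in the longest, CPM not being corrected for length. Among transcripts at 50 CPM and more the share called was 47.2, 49.6, 49.3 and 49.4% in the 4 classes from 500 to 8000 bases, and it was 22.9% under 500 bases and 39.7% at 8000 and more. At 10 to 50 CPM, the class with the most transcripts, it was 27.7, 32.8, 34.3 and 29.6% in the same 4 classes, and at 200 CPM and more 53.8, 56.1, 61.5 and 61.5%. Without replicate 5 at 30 µM the shares called over all levels were 15.7, 22.2, 26.3, 31.2, 30.2 and 28.1% from the shortest class to the longest, and the median lengths were 2791 bases for called transcripts and 2499.5 for those not called.

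The direction of the calls varied with length, and over all levels this shrank when either replicate 5 at 30 µM or replicate 5 of vehicle was left out. Rises made up 58.1% of calls under 500 bases, 56.7% at 500 to 1000, 54.4% at 1000 to 2000, 50.3% at 2000 to 4000, 50.8% at 4000 to 8000 and 39.4% at 8000 bases and more. Without replicate 5 at 30 µM the share was 52.9% under 500 bases, rises and falls were equal in number at 500 to 1000 (174 each), and the shares were 52.3, 51.2, 51.6 and 47.3% in the 4 longer classes. Without replicate 5 of vehicle the shares were 59.5, 53.01, 52.9, 50.7, 52.9 and 48.1% from the shortest class to the longest. Among transcripts at 50 CPM and more there were 8 rises and 8 falls under 500 bases, 77 and 24 at 500 to 1000, 242 and 106 at 1000 to 2000, 381 and 316 at 2000 to 4000, 302 and 301 at 4000 to 8000, and 21 and 27 at 8000 and more. Without replicate 5 at 30 µM these counts were 7 and 8, 67 and 32, 229 and 124, 375 and 333, 318 and 295, and 26 and 24. Without replicate 5 of vehicle they were 7 and 8, 67 and 29, 222 and 115, 357 and 331, 313 and 292, and 29 and 25. With TMM the excess of rises among abundant transcripts of 500 to 2000 bases was smaller but present without either library, and the excess of falls at 8000 bases and more was not. These splits were not counted with library totals, which moved the median log2 fold change of all tested transcripts by -0.05. The median of abundant transcripts at 1000 to 2000 bases was 0.04 with TMM. The median log2 fold change of all abundant transcripts was 0.08 at 500 to 1000 bases and -0.03 at 8000 and more, and without replicate 5 at 30 µM it was 0.05 and -0.00. Over all levels the median of tested transcripts was 0.02 under 500 bases and -0.05 at 8000 and more with TMM. On log2(TPM + 1) these medians were -0.098 and -0.086, with -0.10 at 500 to 1000 bases and -0.078 at 4000 to 8000. Short transcripts were thus not the higher ones on that scale.

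Rises of 8-fold or more had a median length of 1266 bases, within a range of 189 to 6070, and those of 4 to 8-fold 2092 bases, against 2738 for all rises. Without replicate 5 at 30 µM the medians were 1583.5, 2011.5 and 2804 bases. Most of the largest rises had low levels in vehicle, and tested transcripts under 0.5 CPM were shorter in general, with a median of 1960 bases. In that class the 12 rises of 8-fold or more had a median of 1077.5 bases. Of all 23 rises of that size, 8 had no vehicle library at the filter minimum and were tested only because they were higher at 30 µM. No median length was taken without them. Falls of 2-fold or more had a median of 2456 bases, and of 2544 without that library.

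Summed over transcripts, the libraries at 30 µM held a smaller share of counts in long transcripts. Transcripts of 4000 bases and more took 35.8, 35.4, 35.2, 36.2 and 37.8% of the counts in the vehicle libraries and 34.6, 34.8, 35.1, 35.0 and 32.8% at 30 µM. The groups did not overlap, though the highest library at 30 µM was close to the lowest vehicle library. The difference was -1.64 percentage points, with an exact permutation p = 0.00794, the smallest that 5 against 5 libraries allow, and an adjusted p = 0.0635 over the 8 library measures tested (Benjamini-Hochberg). Without replicate 5 at 30 µM it was -1.22 points, and without replicate 5 of vehicle, the highest of its group, -1.21 points (exact permutation p = 0.0159 each).

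Transcripts under 1000 bases took 8.14, 8.23, 8.39, 7.99 and 7.70% in vehicle and 8.43, 8.50, 8.29, 8.28 and 9.48% at 30 µM. These groups overlapped. The difference was 0.507 points (exact permutation p = 0.0317, adjusted p = 0.127 over the 8 measures), 0.287 points without replicate 5 at 30 µM and 0.410 points without replicate 5 of vehicle (exact permutation p = 0.0635 each). The estimated fragment size, read as the median of length minus effective length, was 202 ± 8.72 bases in vehicle and 198 ± 7.64 at 30 µM (exact permutation p = 0.460). Whether RNA quality differed between the libraries was not tested.

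**Figure D5:**
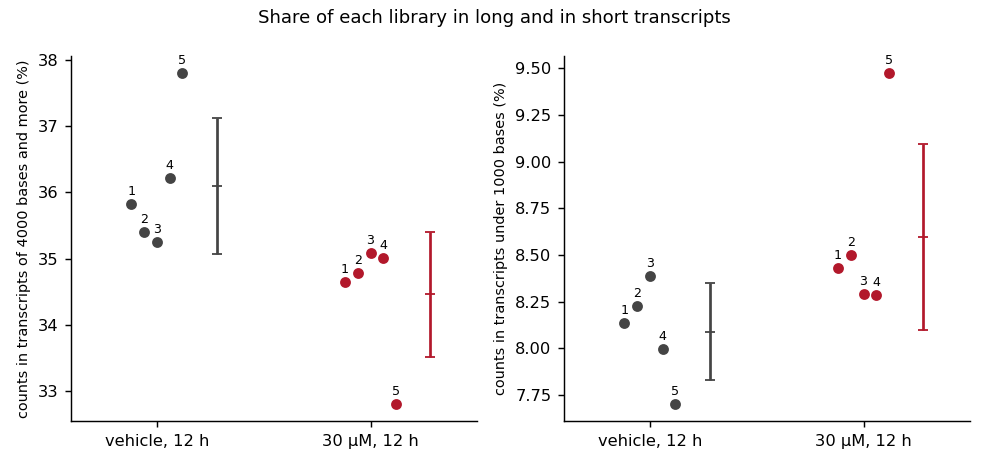
Share of each library's estimated counts (vertical axes, %, not from 0) in transcripts of 4000 bases and more (left) and under 1000 bases (right) for vehicle and 30 µM at 12 h; points are libraries numbered by replicate and bars the mean ± SD (n = 5). The 5 libraries at 30 µM lie below every vehicle library on the left, and replicate 5 lies apart from the other 4 in both panels, at 32.8 and 9.48%.

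A per-library measure of slope with length showed the same library. For each library the median log2 deviation of short transcripts (under 1000 bases) was subtracted from that of long ones (4000 bases and more), among those at 50 CPM and more. The difference lay between -0.05 and 0.11 in vehicle and between -0.01 and 0.04 in 4 of the libraries at 30 µM, with replicate 5 at -0.18. The group means were 0.03 and -0.02 (exact permutation p = 0.333), and without replicate 5 the mean at 30 µM was 0.02 (exact permutation p = 0.667). The number of transcripts called in the whole comparison moved little when libraries were left out singly, between 4129 and 4792.

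The later time gave a reading of the size classes in other libraries. At 24 h, 3492 of 16607 transcripts passed between 30 µM and vehicle (21.0%; 10.5% higher and 10.5% lower; edgeR, adjusted p under 0.1), with no library in common with 12 h. Replicate 5 of 30 µM at 24 h stood apart in length as well, with 31.4% of counts in transcripts of 4000 bases and more (34.6 to 36.0% in the other 4) and a long-minus-short deviation, measured as above, of -0.30 (0.01 to 0.12). Without it 4802 transcripts passed at 24 h. Of the rises at 12 h that were tested at 24 h, 1146 of 2482 (46.2%) were called higher again, and 22 were called lower. Of the falls, 1156 of 2325 (49.7%) were called lower again, and 15 were called higher. Without replicate 5 of 30 µM at 24 h these became 1284 of 2489 rises (51.6%), with 48 called lower, and 1329 of 2331 falls (57.0%), with 27 called higher.

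The share called again was lowest for the smallest rises. It was 34.6% of the rises in the smallest class, 61.7% in the next, up to 1.5-fold, 68.4% at 1.5 to 2-fold, 69.5% at 2 to 4-fold, 75.0% of 28 at 4 to 8-fold and 77.8% of 18 at 8-fold and more. Without replicate 5 of 30 µM at 24 h the shares were 41.6, 66.7, 69.5, 68.6, 74.2 and 75.0%, with no steady rise between 1.5 and 4-fold. The median log2 fold changes at 24 h in these classes were 0.11, 0.26, 0.51, 0.93, 1.92 and 3.07, against 0.19, 0.43, 0.75, 1.31, 2.37 and 3.86 at 12 h. In the classes from 2-fold upward, 151 of 162, 28 of 33 and 18 of 23 rises were tested at 24 h. Over all members, 105 of 162, 21 of 33 and 14 of 23 were called again. A transcript near absent in vehicle enters the 24 h test only where it is still high at 30 µM. The shares and medians at 24 h in these classes are thus in part set by the filter. Falls were called again in 42.8, 59.2, 60.2 and 57.1% of the classes up to 4-fold. Of the 9 falls of 4-fold or more, 1 was called lower again and 1 was called higher, and their median log2 fold change at 24 h was -0.50 against -2.36 at 12 h.

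The transcripts were called at 12 h, a choice that favours larger values at that time. Over the 4807 transcripts called at 12 h and tested at 24 h the median change in the 12 h direction was 0.27 at 12 h and 0.18 at 24 h, and 91.8% kept their direction. Taken the other way, the 3482 transcripts called at 24 h and tested at 12 h had a median of 0.31 at 24 h and 0.25 at 12 h, and 92.2% had the same direction. The direct test of the difference between the times called 650 of 17393 transcripts (3.74%; 1.64% with a higher and 2.09% with a lower log2 effect at 24 h; edgeR interaction contrast, adjusted p under 0.1). The count was 1101 without replicate 5 of 30 µM at 24 h and 1031 in DESeq2. Among the rises at 12 h it called 251 smaller and 40 larger at 24 h, and among the falls 114 smaller and 49 larger. This contrast shares the 12 h libraries with the choice of transcripts, so these counts are descriptions.

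At 40 µM and 12 h, compared with the same 5 vehicle libraries, 51.0% of tested transcripts passed, and the median log2 fold changes of the 6 classes of rises were 0.23, 0.55, 0.92, 1.67, 2.49 and 4.78. For the falls they were -0.36, -0.65, -0.90 and -1.41 in the classes up to 4-fold, against -0.21, -0.43, -0.73 and -1.17 at 30 µM. The 7 falls of 4 to 8-fold had a median of -0.89 at 40 µM against -2.34 at 30 µM, and the 2 of 8-fold and more 0.48 against -4.65. Some transcripts did not pass the count filter at 40 µM. Of the rises of 2 to 4-fold 158 of 162 were tested there, of those of 4 to 8-fold 31 of 33, and of those of 8-fold and more 19 of 23. Of the falls of 2 to 4-fold 94 of 96 were tested. The medians at 40 µM in these classes are therefore not over all the transcripts called at 30 µM. The comparisons of 30 and 40 µM with vehicle use the same vehicle libraries and share their error. In the direct test of the doses, 5587 of 16684 transcripts differed between 40 and 30 µM (33.5%; 16.8% higher and 16.7% lower at 40 µM; edgeR, adjusted p under 0.1). Among the rises at 30 µM, 946 were higher still at 40 µM and 306 were lower than at 30 µM. Among the 2312 falls tested, 1027 were lower still and 170 were higher. The direct test shares the 30 µM libraries with the choice of transcripts.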

How the data were processed

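Poly-A RNA of 30 libraries in 6 groups of 5 was analysed, grouped by the agent and time in the labels. The authors ran Kallisto (version 0.42.4 per the submitters' processing notes) on the Ensembl guinea pig transcriptome, whose release is not given in the sources used here. The deposited tables hold an estimated count (fractional where reads were shared, not normalised) and a TPM value, which the authors' tool corrects for effective length, for 25824 transcripts per library.

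Estimated counts were rounded and tested per transcript with edgeR 4.0.16 (R 4.3.3; TMM, filterByExpr, quasi-likelihood F test, glmTreat for minimum folds), using the compared groups only, at a Benjamini-Hochberg adjusted p under 0.1. Sleuth, the study's tool, was not used. Standard errors were obtained by dividing the log2 fold change by the root of its F value. CPM uses TMM factors over the 30 libraries. Library measures were compared by two-sided exact permutation tests (Python 3.11.15, scipy 1.17.1). Alternatives were RLE factors, library totals only (added after seeing the data), DESeq2 1.42.0, no filter, a single fit to the 30 libraries, limma 3.58.1 with TPM pseudocounts of 1 and 0.1, a threshold of 0.05, whole estimates only, a block on title-number position, and leaving out each library.

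In a simulation with the library sizes and spread of this comparison on 16309 transcripts, 50 of 95 transcripts changed by 0.5 on the log2 scale (52.6%) and 75 of 98 changed by 1 (76.5%) were called, and 9 of 134 calls (6.72%) were false. No other transcripts were changed, whereas 29.0% were called in the data. The adjusted threshold depends on the share changed, so these rates do not carry over to the data.

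Transcripts printed by identifier were, in each direction, the one with the largest log2 fold change and the one with the largest CPM difference (whole estimates first) among called transcripts with a mean of at least 50 counts and no overlap between groups; 1554 rises and 1346 falls met these conditions. The comparison, classes and rule were chosen with earlier results of these data known. The planned gene and marker lists need gene names and were not run.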

Additional observations from a re-analysis of the deposited data

Results flagged for a closer look

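Replicate 5 at 30 µM and 12 h lay far from the other 4 libraries of its group in 4 measures. Its share of counts in transcripts of 4000 bases and more was 32.8% (the others 34.6 to 35.1), and its share in transcripts under 1000 bases was 9.48% (8.28 to 8.50). Its 10 most abundant transcripts took 9.28% of counts (9.84 to 9.98), and its long-minus-short deviation was -0.18 on the log2 scale (-0.01 to 0.04). At 24 h replicate 5 of 30 µM lay apart in the same way, with 9.58% of counts in transcripts under 1000 bases (the others 8.09 to 8.47) and a long-minus-short deviation of -0.30 (0.01 to 0.12). ENSCPOT00000025069.2 was at 4675 CPM in that library (3686 to 3917 in the other 4) and at 1221 CPM in replicate 2 of vehicle at 24 h (1079 to 1097). In all, 47 sets of 5 values were examined, of which 8 had such a library and about 2.35 would by chance. Measures of 1 library are not independent.

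The effect of 30 µM differed between 24 h and 12 h for 650 transcripts by the interaction test, for 1101 without replicate 5 of 30 µM at 24 h, and for 1031 in DESeq2. The level differed between 40 µM and 30 µM at 12 h for 5587 transcripts by the direct test.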

How the results depend on the processing

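The number of transcripts called at 12 h was 3094 with a replicate block on title-number position and 2672 with whole estimates only, where fewer transcripts were tested. Correlations of deviations between libraries at the same position were between -0.05 and 0.01 in 4 pairs. These values show no pairing by the numbers, but so few pairs cannot exclude it. Beyond 1.2-fold, 597 passed with the block and 606 with whole estimates only. At 2-fold and more the counts were 527 in DESeq2, 149 on log2(TPM + 1) and 135 with whole estimates only. The interaction called 1031 transcripts in DESeq2, and between 470 and 1101 when libraries were left out singly, the highest without replicate 5 of 30 µM at 24 h. With the 12 h vehicle libraries as baseline, 14.4% of transcripts under 0.5 CPM were called and 100% of these calls were rises. The median log2 fold change of all tested transcripts by length class also moved on log2(TPM + 1). In the 5 length classes below 8000 bases it was -0.098, -0.10, -0.093, -0.083 and -0.078 in order of length. At 8000 bases and more it was -0.086, lower than at 4000 to 8000 bases. With TMM the medians from the shortest class to the longest were 0.02, -0.0076, -0.0081, -0.0076, -0.0086 and -0.05. The shortest class was thus above the longest with TMM and below it on log2(TPM + 1). The causes of these shifts beyond the construction of the alternatives were not tested.

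Leaving out single libraries gave differences between 30 µM and vehicle of -1142250 to 2319330 in total counts, -8.85 to 148.9 in detected transcripts, -0.0217 to 0.409 points in the 100 most abundant transcripts, 0.287 to 0.585 points in transcripts under 1000 bases and -0.689 to -0.299 points in fractional estimates. The same omissions gave 321 to 341 calls of 2-fold or more and 855 to 957 beyond 1.2-fold. Calls of 40 against 30 µM ranged from 4545 to 6005, and those at 24 h from 2973 to 4802. Of the transcripts given by identifier, the 3 with counts in vehicle kept their direction and call under each alternative that gave a value. Standard errors were largest in transcripts under 2 CPM, and they cover the spread of these libraries only.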
